A study of Mus musculus with 8 samples.

Results

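Heme is made from glycine and succinyl-CoA in a fixed chain of enzymes that starts in the mitochondrion, runs through the cytosol and ends back in the mitochondrion, where iron is put into protoporphyrin. The intermediates between the fourth enzyme and iron insertion are porphyrins or their precursors, and porphyrins take up light and make reactive oxygen species, which is why the same pathway is used to load tumours with a photosensitiser from aminolevulinic acid. Cells also export what they make. Flvcr1 has been described as a heme exporter and is grouped here as one. Abcg2 carries porphyrins and many drugs, chlorins such as chlorin e6 among its known substrates. The 9 genes described here are 7 enzymes of the chain as it runs outside red cell precursors (Alas1, Alad, Uros, Urod, Cpox, Ppox and Fech) and these 2 exporters. They were taken by symbol from a table of 57132 genes, each symbol sat on a single identifier, and all 9 passed the filter on low counts that left 16588 genes for testing.

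The RNA came from bulk tissue of pancreatic KPC tumours grown under the skin of mice. The 4 PDT samples are tumours after photodynamic therapy, for which mice received Ce6@D4-EV and light; Ce6 is the photosensitiser chlorin e6, and D4-EV is spelled as the submitters spell it. The 4 PBS samples are tumours of mice that received phosphate-buffered saline. The sources used here do not state the strain, the age, the time of harvest or whether PBS tumours were lit, and unlit or carrier-only arms are not analysed here. They also leave unsaid whether each tumour had its own mouse, so the p-values describe spread among these samples, part of which may be technical. The labels call the tissue sorted and name no marker. All 12 listed markers of tumour epithelium were read, with a summed level of 3291 to 6550 counts-per-million of the scaled library (CPM) in PDT and 3751 to 7684 CPM in PBS.

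Libraries held 39026840 to 48804713 reads in PDT and 35742024 to 40337306 reads in PBS. PBS 1 stood apart on the first principal component, at −111.5 against 16.1 to 37.2 in PDT and −8.53 to 4.32 in the other PBS libraries. In bulk RNA, fewer cells of a type and less RNA per cell cannot be told apart. Marker lists of other cells differed along with the treatment or with single libraries. All 12 macrophage and monocyte markers were higher in PDT (1 past the threshold), with a summed level of 5005 to 6752 CPM in PDT and 2043 to 4160 CPM in PBS. Markers of red cells, whose precursors make most of the body's heme, were lower in PDT for all 7 tested of 12 (0 past the threshold), with sums of 581 to 1338 CPM in PDT and 795 to 4369 CPM in PBS. Skeletal muscle markers, of which Tnnc2 alone was at 0 reads, were above 0 on the log2 difference scale for all 9 tested (0 past the threshold) and summed to 3862 CPM in PDT 2. In the remaining libraries this sum was 170 to 852 CPM for PDT and 64.5 to 1554 CPM for PBS. The part of these cells in the values below was not tested.

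None of the 9 genes differed between PDT and PBS at the threshold used, an adjusted p of 0.05 over all tested genes. The count was 0 of 9 with edgeR's quasi-likelihood test, where 0.235% of all tested genes passed (0.163% higher and 0.0723% lower in PDT). DESeq2, which called 5.24% of the same genes, and limma-voom, which called 1.01%, also called 0 of 9. Adjusted p-values below are edgeR's unless another tool is named. Flvcr1 was the 1 gene of the 9 with an unadjusted p under 0.05, a mark that 16.5% of all tested genes reached, 8.63% as higher and 7.87% as lower in PDT. Urod was the 1 gene of the 9 whose groups did not overlap, as happened in 10.1% of all tested genes. A count of 1 in 9 is near the background in both cases. Log2 differences were above 0 for 8 genes, as for 49.8% of all tested genes, and below 0 for Flvcr1, and their median was 0.13 (−0.0022 over all tested genes). Of these 8, Ppox, Fech and Abcg2 changed sign when 1 library was left out. Alas1, Alad, Urod and Ppox did so under a correction for GC content and length, which moved the median of all tested genes by −0.08; of these 4, Alad alone ended further below 0 than that shift. The median size of the difference, sign left aside, was 0.16 in the 9 genes and 0.27 over all tested genes, and the median standard error was 0.18 and 0.23.

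**Figure D1:**
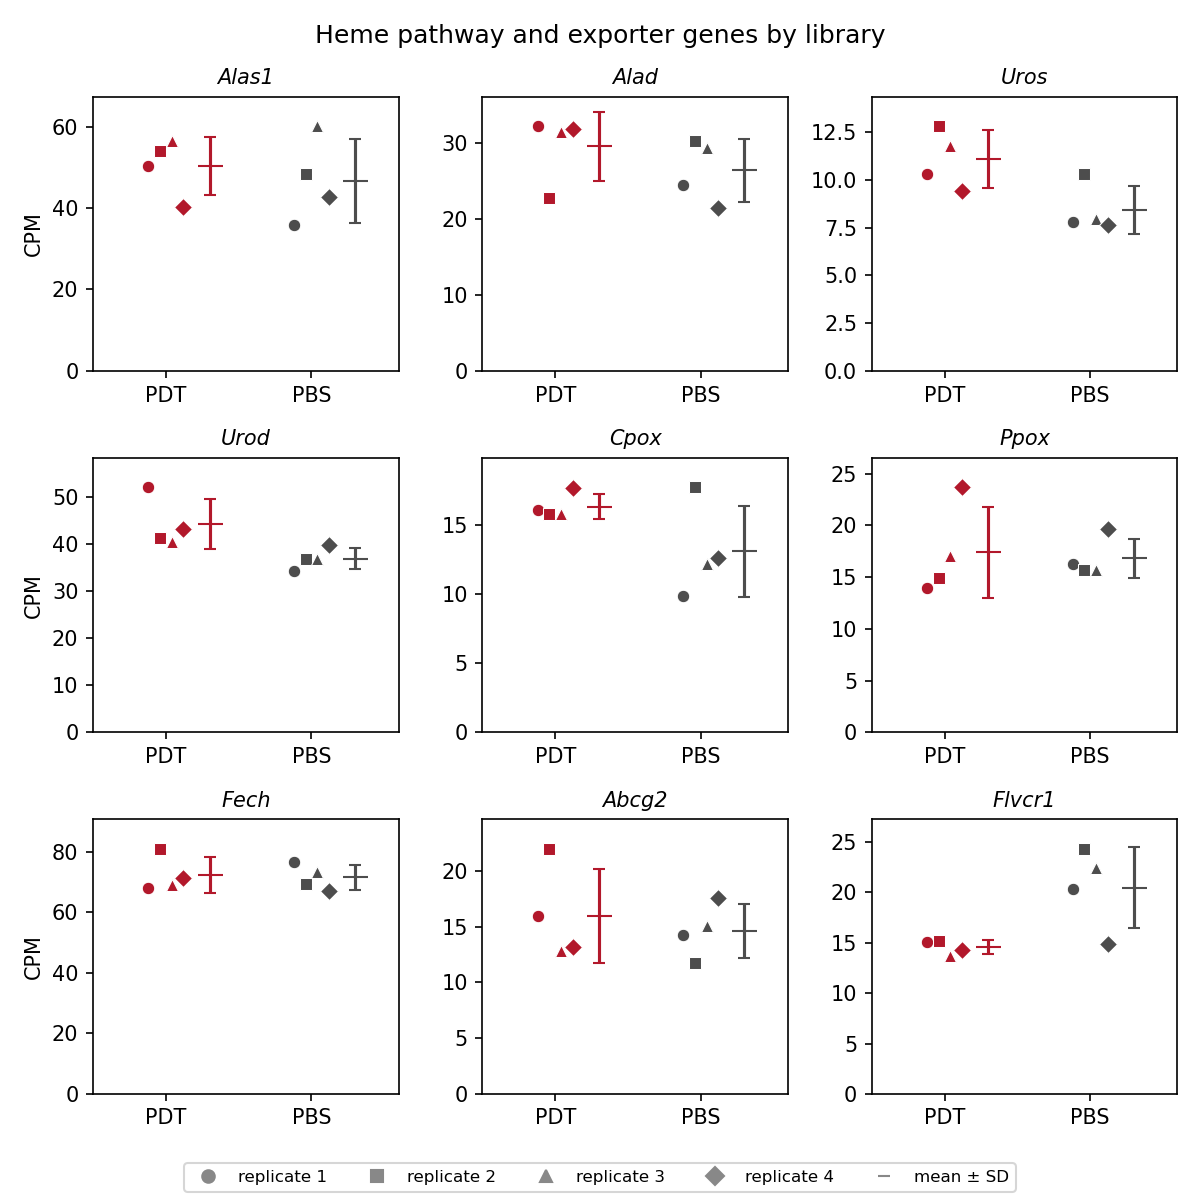
Level of each of the 9 genes in CPM (vertical axes start at 0), with PDT left of PBS, 1 symbol per replicate, and the mean ± SD of 4 libraries beside the points. Urod alone has all PDT points above all PBS points, and in Flvcr1 the PDT points lie at 13.7 to 15.2 CPM with PBS 4 among them.

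Alas1 (ENSMUSG00000032786), the rate-limiting first enzyme outside red cell precursors, which heme itself represses, was at 50.3, 54.0, 56.6 and 40.3 CPM in PDT 1 to PDT 4 and at 35.8, 48.3, 60.2 and 42.6 CPM in PBS 1 to PBS 4. The PBS values enclosed the PDT values at both ends. PDT minus PBS came to 0.11 ± 0.17 on the log2 scale (SE, adjusted p = 0.826), with a 95% interval of −0.27 to 0.48. The difference was 0.00054 without PBS 1, which had the lowest level, and 0.25 without PBS 3, which had the highest. Alad (ENSMUSG00000028393), which joins aminolevulinic acid molecules into porphobilinogen, was at 32.2, 22.8, 31.4 and 31.7 CPM in PDT and at 24.4, 30.2, 29.3 and 21.5 CPM in PBS. PDT 2 was the low library of its group, and the groups overlapped (log2 difference 0.16 ± 0.17, adjusted p = 0.692, interval −0.20 to 0.53, and 0.09 to 0.28 with 1 library left out).

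The middle of the chain, Uros, Urod and Cpox, held the largest positive differences of the 9 genes. Uros (ENSMUSG00000030979), which closes the tetrapyrrole ring in the form used for heme, was at 10.3, 12.8, 11.8 and 9.41 CPM in PDT and at 7.78, 10.3, 7.94 and 7.62 CPM in PBS. PBS 2 reached into the PDT range, while the other PBS libraries lay below every PDT library. The log2 difference was 0.40 ± 0.20 (SE, adjusted p = 0.354), with an interval of −0.04 to 0.83. Urod (ENSMUSG00000028684), which strips carboxyl groups from uroporphyrinogen, was at 52.1, 41.3, 40.6 and 43.2 CPM in PDT and at 34.3, 36.8, 37.0 and 39.8 CPM in PBS. The groups did not overlap, though PDT 3 and PBS 4 were less than 1 CPM apart. Its log2 difference was 0.26 ± 0.13 (adjusted p = 0.332), with an interval of −0.02 to 0.54. Cpox (ENSMUSG00000022742), which acts at the outer face of the mitochondrial inner membrane, was at 16.0, 15.7, 15.8 and 17.6 CPM in PDT and at 9.85, 17.7, 12.1 and 12.6 CPM in PBS. PDT libraries were close together, at 16.3 ± 0.901 CPM (SD, n = 4), and PBS libraries were spread, at 13.1 ± 3.30 CPM, with PBS 2 above all PDT libraries. The log2 difference of Cpox was 0.32 ± 0.19 (adjusted p = 0.458), and it ran from 0.21 without PBS 1 to 0.50 without PBS 2.

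These differences were small enough to move with a correction for base composition, added after the data were seen. After a correction of each library for GC content and transcript length, Urod was at −0.04, Alas1 at −0.04, Alad at −0.14 and Ppox at −0.07 on the log2 scale, while Uros stayed above 0 at 0.19 and Cpox at 0.23. The correction moved the median of all tested genes by −0.08, and Urod, Alas1, Alad and Ppox each moved further down than that. Urod, Alas1 and Ppox, though below 0, ended no lower than −0.08, and Alad ended lower. Adjusted p-values under this correction were 0.572 to 0.936 for these 6 genes by edgeR.

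The last steps held the smallest differences of the 9 genes. Ppox (ENSMUSG00000062729), which oxidises protoporphyrinogen to the light-absorbing protoporphyrin, was at 14.0, 14.9, 17.0 and 23.7 CPM in PDT and at 16.3, 15.7, 15.7 and 19.7 CPM in PBS. PDT 4 was the highest of all 8 libraries and PDT 1 the lowest, so that the log2 difference of 0.05 ± 0.19 (adjusted p = 0.942) turned to −0.13 without PDT 4. Fech (ENSMUSG00000024588), the ferrochelatase that inserts iron, was at 68.1, 81.0, 69.0 and 71.3 CPM in PDT and at 76.6, 69.5, 73.2 and 67.2 CPM in PBS. It was the most even of the 9 genes in standard error, with a log2 difference of 0.01 ± 0.12 (adjusted p = 0.969) and an interval of −0.24 to 0.27, or 0.849-fold to 1.20-fold. Its direction turned without PDT 2 (−0.03) and without PBS 4 (−0.0016), and it was at 0.13 after the GC and length correction.

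Of the exporters, Flvcr1 (ENSMUSG00000066595) held the largest difference of the 9 genes in either direction. It was at 15.1, 15.2, 13.7 and 14.2 CPM in PDT and at 20.3, 24.3, 22.4 and 14.9 CPM in PBS. The PDT libraries were close together at 14.6 ± 0.715 CPM (SD, n = 4) and the PBS libraries were at 20.5 ± 4.06 CPM, PBS 4 lying inside the PDT range. The log2 difference was −0.49 ± 0.18 (SE, adjusted p = 0.189, unadjusted p = 0.016 in the edgeR fit), with an interval of −0.88 to −0.11, a level 0.711-fold that of PBS. It stayed below 0 in all 17 alternative settings, between −0.60 without PBS 4 and −0.40 without PBS 2, with adjusted p-values of 0.0944 to 0.377, and it was −0.47 after the GC and length correction. PBS 4 was also the library with the highest sum of red cell markers, 4369 CPM. PBS 2 held the next highest sum, 2601 CPM, and the highest Flvcr1 level. The part of red cells in Flvcr1 was not tested.

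Abcg2 (ENSMUSG00000029802), the porphyrin and drug exporter, was at 15.9, 22.0, 12.8 and 13.2 CPM in PDT and at 14.2, 11.7, 15.04 and 17.6 CPM in PBS. PDT 2 was the highest and PBS 2 the lowest, and the other 6 libraries of both groups lay between 12.8 and 17.6 CPM. The log2 difference of 0.13 ± 0.21 (adjusted p = 0.832) became −0.05 without PDT 2, the library with the most skeletal muscle RNA, and 0.32 after the GC and length correction (adjusted p = 0.450). Endothelial cells express Abcg2 in many tissues. The 12 endothelial markers summed to 139.5 to 190.4 CPM in PDT and 160.2 to 182.4 CPM in PBS, with 160.4 CPM in PDT 2, inside the range of PBS. The part of endothelial cells in the Abcg2 values was not tested. The interval of Abcg2, −0.34 to 0.59, is the widest of the 9 genes and spans levels from 0.792-fold to 1.504-fold that of PBS.

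**Figure D2:**
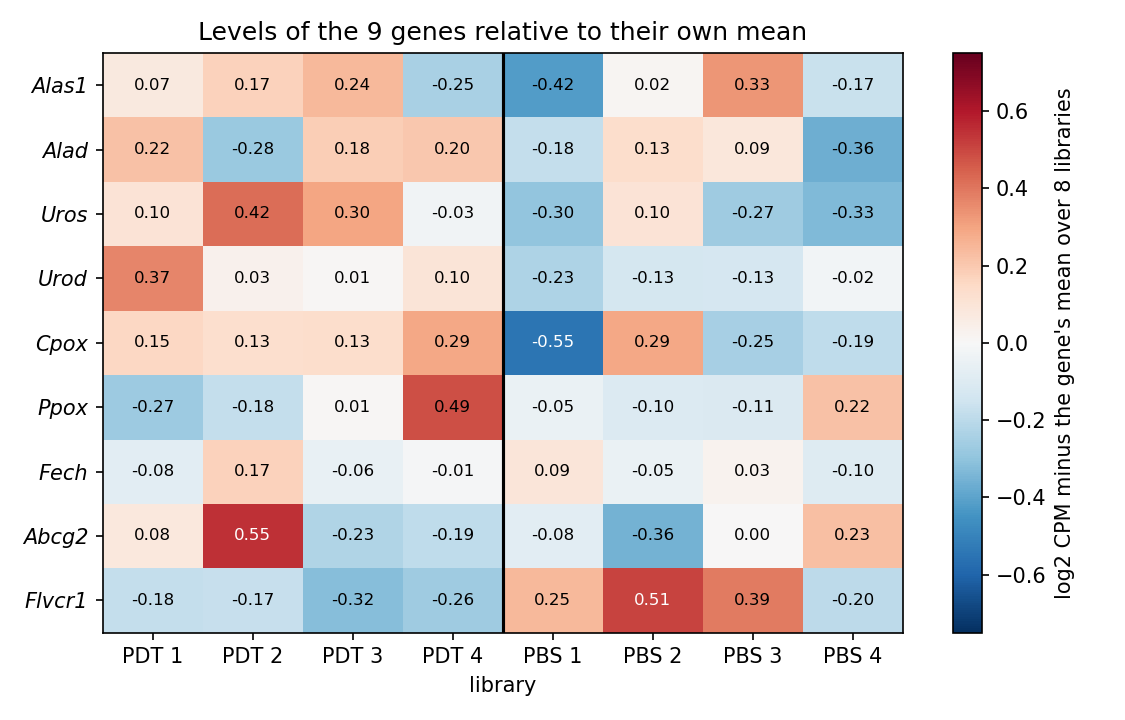
Log2 CPM (prior count 2) of each gene minus its mean over the 8 libraries, PDT 1 to PDT 4 left of the line and PBS 1 to PBS 4 right of it; red is above the gene's mean. Flvcr1 is below its mean in all PDT libraries and in PBS 4, and no PDT or PBS library is high or low for all 9 genes.

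Looked at by library, no library was at the top or bottom for all 7 enzymes. PBS 1 and PBS 4 were below the mean of the 8 libraries for 6 of the 7 enzymes each, PBS 2 and PBS 3 for 3 and 4, and the PDT libraries for 1 to 3. The highest of the 8 libraries was PDT 1 for Alad and Urod, PDT 2 for Uros, Fech and Abcg2, PDT 4 for Ppox, PBS 2 for Cpox and Flvcr1, and PBS 3 for Alas1. The lowest was PBS 1 for Alas1, Urod and Cpox, PBS 4 for Alad, Uros and Fech, PDT 1 for Ppox, PDT 3 for Flvcr1 and PBS 2 for Abcg2. Summed over the 7 enzymes, the level was 243, 243, 242 and 237 CPM in PDT 1 to PDT 4 and 205, 229, 235 and 211 CPM in PBS 1 to PBS 4. The PDT sums lay close together and above every PBS sum, with PBS 3 the nearest. This sum was not tested, and summed macrophage markers were also higher in all PDT than in all PBS libraries.

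Ratios within a library do not depend on how libraries are scaled. The 7 enzymes together had 16.1, 16.0, 17.7 and 16.7 reads per Flvcr1 read in PDT 1 to PDT 4 and 10.1, 9.40, 10.5 and 14.1 in PBS 1 to PBS 4. All PDT ratios lay above all PBS ratios, with PBS 4 the nearest. Abcg2 had 1.05, 1.45, 0.938 and 0.926 reads per Flvcr1 read in PDT and 0.700, 0.482, 0.671 and 1.18 in PBS, where PBS 4 exceeded all PDT libraries but PDT 2. Entry against exit of the chain, Alas1 reads per Fech read, was 0.697 ± 0.107 in PDT and 0.654 ± 0.147 in PBS (SD, n = 4), a difference smaller than either SD. These ratios are descriptions, put together after the genes' values were seen, and have no test.

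**Figure D3:**
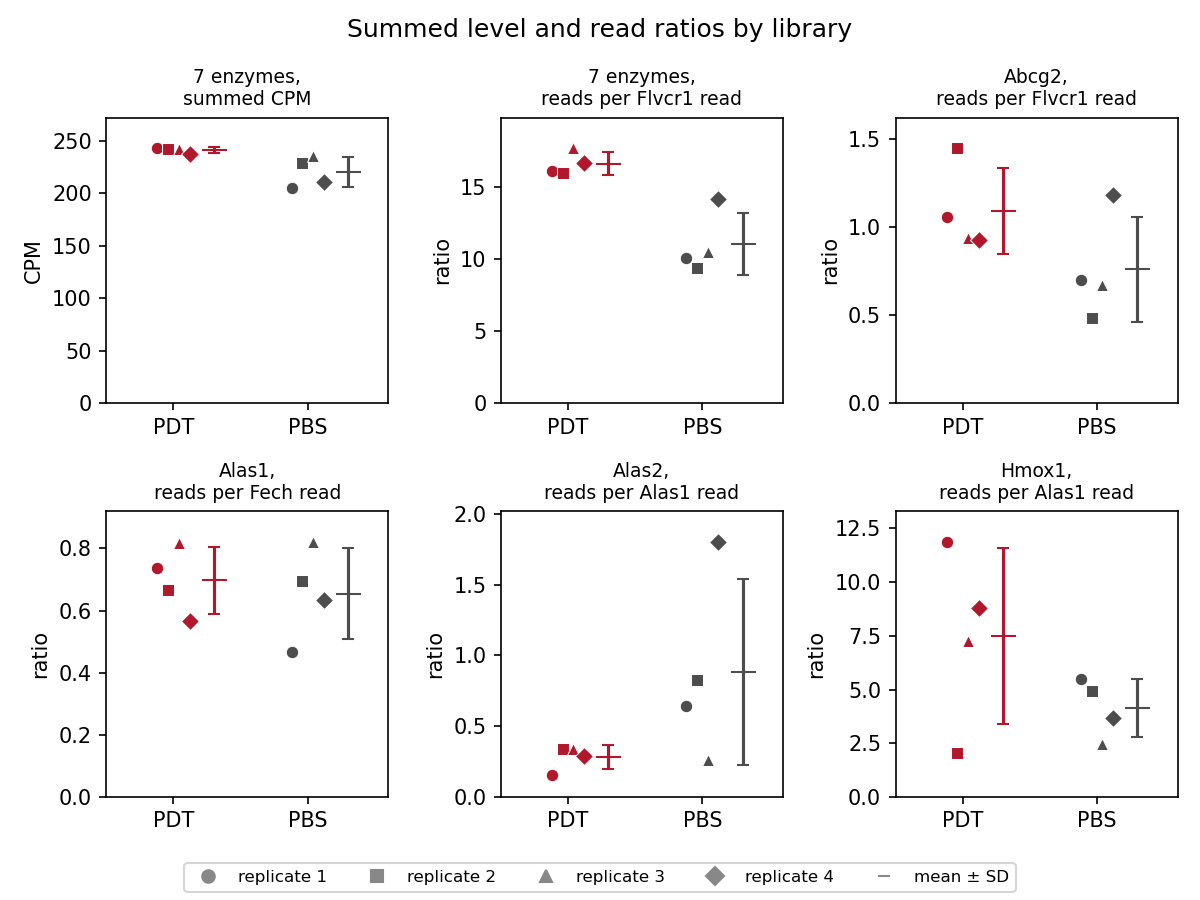
Summed CPM of the 7 enzymes and read ratios between genes of the same library, with PDT left of PBS, 1 symbol per replicate and mean ± SD beside; axes start at 0. The enzyme sum is 237 to 243 CPM in PDT and 205 to 235 CPM in PBS, and Alas1 per Fech overlaps fully between the groups.

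Levels of different genes were compared per kilobase of annotated exon. In PDT tumours the order was Urod at 17.1 ± 2.05, Alad at 15.8 ± 2.41, Alas1 at 8.15 ± 1.15, Fech at 5.23 ± 0.426, Ppox at 3.85 ± 0.969, Uros at 3.10 ± 0.425, Flvcr1 at 2.81 ± 0.138, Cpox at 2.45 ± 0.135 and Abcg2 at 1.96 ± 0.518 CPM per kilobase (SD, n = 4). In PBS tumours Urod, at 14.3 ± 0.867, and Alad, at 14.1 ± 2.22, again led, and Abcg2 was again last at 1.80 ± 0.296 CPM per kilobase. Between them in PBS came Alas1 at 7.57 ± 1.67, Fech at 5.18 ± 0.298, Flvcr1 at 3.96 ± 0.784, Ppox at 3.73 ± 0.420, Uros at 2.35 ± 0.354 and Cpox at 1.96 ± 0.496 CPM per kilobase. Some neighbours in this order differed by less than the larger of their SDs. These were Urod and Alad, and Cpox and Abcg2, in both groups; Ppox and Uros, and Uros and Flvcr1, in PDT; and Flvcr1 and Ppox, and Uros and Cpox, in PBS. Per kilobase of the longest annotated transcript instead, Urod led at 29.8 in PDT and 24.8 in PBS and Abcg2 was last at 2.80 and 2.56, while the genes between them partly changed places.

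Some of the 9 genes share exon sequence with a gene on the opposite strand. The kit keeps strand, but the strand setting of the counting is not stated in those sources, so shared reads cannot be assigned with certainty. Ppox shares 17.5% of its exon bases with B4galt3, which was at 14.2 ± 5.16 CPM in PDT and 13.9 ± 3.95 CPM in PBS (SD, n = 4). Flvcr1 shares 15.6% with A230020J21Rik, Alas1 7.53% with 4930500F10Rik and Cpox 3.06% with Gpr15. These neighbours had at most 6 reads in a PDT library and at most 24 in a PBS library. For Uros, Urod, Alad, Fech and Abcg2 no such overlap was found in the annotation used.

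The genes around the chain were described by up to 3 with the smallest p of each of 5 lists. Of 14 tested genes in the rest of heme synthesis and its mitochondrial transport, 0 passed the threshold, and the median log2 difference was −0.03. Alas2, the first enzyme as red cell precursors use it, was at 7.89, 18.3, 19.1 and 11.6 CPM in PDT and at 22.9, 39.9, 15.9 and 76.8 CPM in PBS. PBS 4 and PBS 2 were high, as they were for the sum of red cell markers (4369 and 2601 CPM), and PBS 3 lay inside the PDT range. The log2 difference of Alas2 was −1.45 ± 0.44 (SE, adjusted p = 0.139, range 0.00875 to 0.314 across the alternatives), and −0.87 without PBS 4. That of Alas1 in the same libraries was 0.11. Alas2 had 0.280 ± 0.0857 reads per Alas1 read in PDT and 0.883 ± 0.656 in PBS (SD, n = 4). Clpp, part of the protease that removes Alas1 protein, differed by 0.30 ± 0.15 (adjusted p = 0.339, −0.05 after the GC and length correction). Abcb6, a porphyrin transporter, had 0 to 18 reads in a library and was too low to test.

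Genes for uptake and carriage of heme and porphyrins had 0 of 9 tested past the threshold. DESeq2 called 2 of them and limma-voom 0, against 5.24% and 1.01% of all tested genes. Hebp1, a heme-binding protein, was at 24.4, 26.4, 19.0 and 24.4 CPM in PDT and at 15.6, 11.4, 13.9 and 19.2 CPM in PBS. PBS 4 was just above PDT 3, and the other libraries separated by group. Its log2 difference was 0.65 ± 0.19 (SE, adjusted p = 0.123 by edgeR, 0.0442 by DESeq2, and 0.0442 to 0.280 over all alternatives). Slc15a2, a peptide transporter that also takes up aminolevulinic acid, was low, at 6 to 34 reads in PDT and 44 to 116 reads in PBS. Its groups did not overlap, and the log2 difference was −1.91 ± 0.65 (adjusted p = 0.174 by edgeR, 0.0464 by DESeq2, 0.0464 to 0.32 over all alternatives). Slc48a1, which moves heme out of lysosomes, was at 126, 68.1, 116 and 123 CPM in PDT and at 84.7, 83.3, 90.4 and 76.2 CPM in PBS, with PDT 2 below all other libraries and the other PDT libraries above all PBS libraries (0.37 ± 0.18, adjusted p = 0.33). It was at 0.11 after the GC and length correction.

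Heme breakdown was tested with 4 genes, all with log2 differences above 0 and unadjusted p-values under 0.05 in edgeR. Of all tested genes, 49.8% were above 0 and 16.5% had such a p-value. The list was chosen with earlier results of these data known, so this count is no test of it. None of the 4 passed the threshold in edgeR. DESeq2 called 2 (Blvrb and Hmox2) and limma-voom called 0, against 5.24% and 1.01% of all tested genes. The median log2 difference of these 4 was 0.72. Blvrb, a biliverdin reductase, was at 90.4, 47.5, 66.2 and 76.7 CPM in PDT and at 34.7, 38.3, 33.9 and 48.3 CPM in PBS. PDT 2 lay just below PBS 4, and the log2 difference was 0.86 ± 0.19 (SE, adjusted p = 0.0803 in edgeR, 0.00281 by DESeq2, 0.00281 to 0.22 over all alternatives). Hmox2, the constitutive heme oxygenase, was at 48.2, 35.2, 39.7 and 43.4 CPM in PDT and at 29.8, 28.6, 23.9 and 28.4 CPM in PBS. Every PDT library was above every PBS library, and the groups differed by 0.59 ± 0.14 on the log2 scale (adjusted p = 0.0878 in edgeR, 0.0136 by DESeq2, 0.0136 to 0.236 over all alternatives). Hmox1, the inducible heme oxygenase, was at 597, 111, 411 and 355 CPM in PDT and at 196, 239, 149 and 156 CPM in PBS. PDT 2 was below all PBS libraries, and the other PDT libraries were above them all. The log2 difference of Hmox1 was 0.995 ± 0.38 (adjusted p = 0.212), and adjusted p-values over all alternatives ran from 0.0364 to 0.494. Those ends were 1.31 without PDT 2 and 0.67 without PDT 1 on the log2 scale. Hmox1 had 11.9, 2.05, 7.27 and 8.80 reads per Alas1 read in PDT 1 to PDT 4 and 5.48, 4.94, 2.48 and 3.65 in PBS 1 to PBS 4. After the GC and length correction the log2 difference was 0.55 for Blvrb, 0.35 for Hmox2 and 0.69 for Hmox1. Macrophages express heme breakdown genes, and their markers summed to 6752, 5988, 5005 and 5200 CPM in PDT 1 to PDT 4, all above PBS. PDT 2 was the lowest PDT library for Blvrb, Hmox2 and Hmox1. For Blvra, the remaining gene of the list, PDT 3 was lowest at 44.3 CPM, with PDT 2 at 45.0 CPM. The part of these cells in the differences was not tested.

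**Figure D4:**
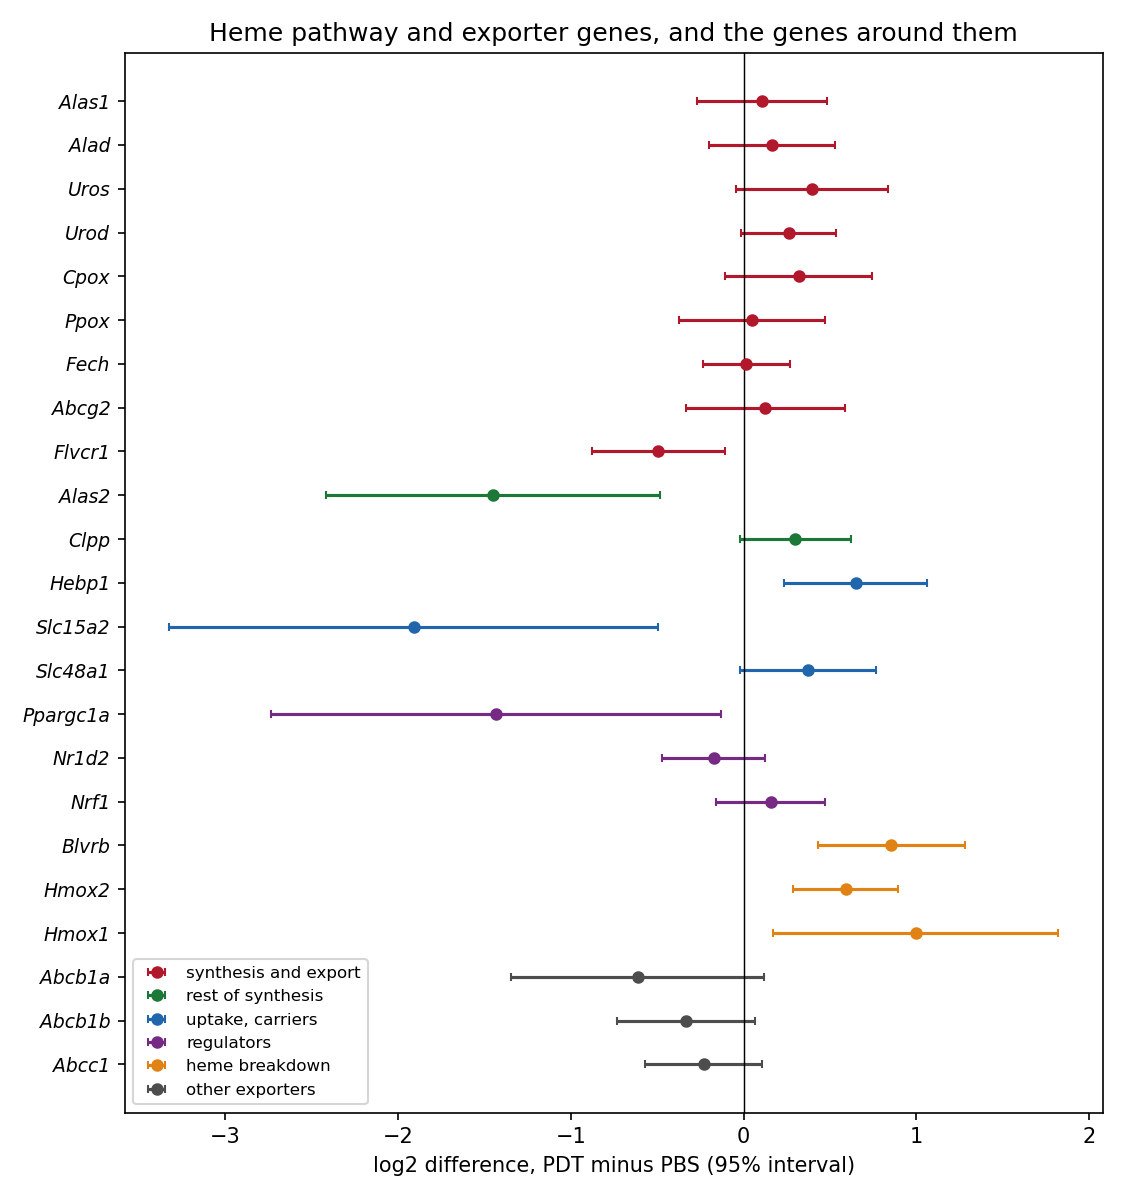
Log2 difference of PDT minus PBS with its 95% interval from edgeR for the 9 genes (top, red) and for up to 3 genes with the smallest p of each of 5 lists around them. Of the 9, only the interval of Flvcr1 leaves out 0; of the others shown, those of Hebp1, Blvrb, Hmox2 and Hmox1 lie above 0 and those of Alas2, Slc15a2 and Ppargc1a below 0.

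Among regulators of heme genes 0 of 9 passed, with a median log2 difference of −0.01. Ppargc1a, a coactivator that induces Alas1 in mouse liver, was at 0.834 ± 0.162 CPM in PDT and 2.26 ± 1.35 CPM in PBS (SD, n = 4), with PBS 1 below all PDT libraries and a difference of −1.43 ± 0.60 in log2 units (SE, adjusted p = 0.257). Nr1d2, a heme-binding clock repressor, differed by −0.17 ± 0.14 (adjusted p = 0.588, between −0.24 and −0.05 over all alternatives). Nrf1, a transcription factor for mitochondrial genes, had a log2 difference of 0.16 ± 0.14 (adjusted p = 0.655, between 0.09 and 0.29 over all alternatives). Other drug exporters of the ABC family also had 0 of 9 past the threshold, none with an unadjusted p under 0.05 in edgeR, and a median log2 difference of −0.23. Abcb1a, which with Abcb1b forms the mouse P-glycoproteins, was at 34.6, 20.9, 22.1 and 22.0 CPM in PDT and at 18.0, 33.4, 32.1 and 68.8 CPM in PBS. PBS 4 was far the highest, and the log2 difference was −0.61 ± 0.33 (adjusted p = 0.401), or −0.15 without PBS 4. Abcb1b differed by −0.33 ± 0.18 (adjusted p = 0.405, −0.11 without PBS 4) and Abcc1 by −0.23 ± 0.15 (adjusted p = 0.506, −0.14 without PBS 4 and −0.36 without PBS 1).

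The genes whose profile lay nearest to that of Alas1 over the 8 libraries were Dele1, Tdrd7 and Alg9, at root mean square distances of 0.0614, 0.0922 and 0.0955 on the centred log2 CPM scale. The median distance over the 11332 genes compared was 0.358, and the nearest of the other 8 genes described here was Uros at 0.255. Nearest to Abcg2 were Rxylt1, Trmt5 and Dis3l2, at 0.128, 0.131 and 0.135, against a median of 0.377 and 0.238 for Fech, the nearest of the 8. These genes were picked as the nearest of all those compared, and their distances have no test.

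**Figure D5:**
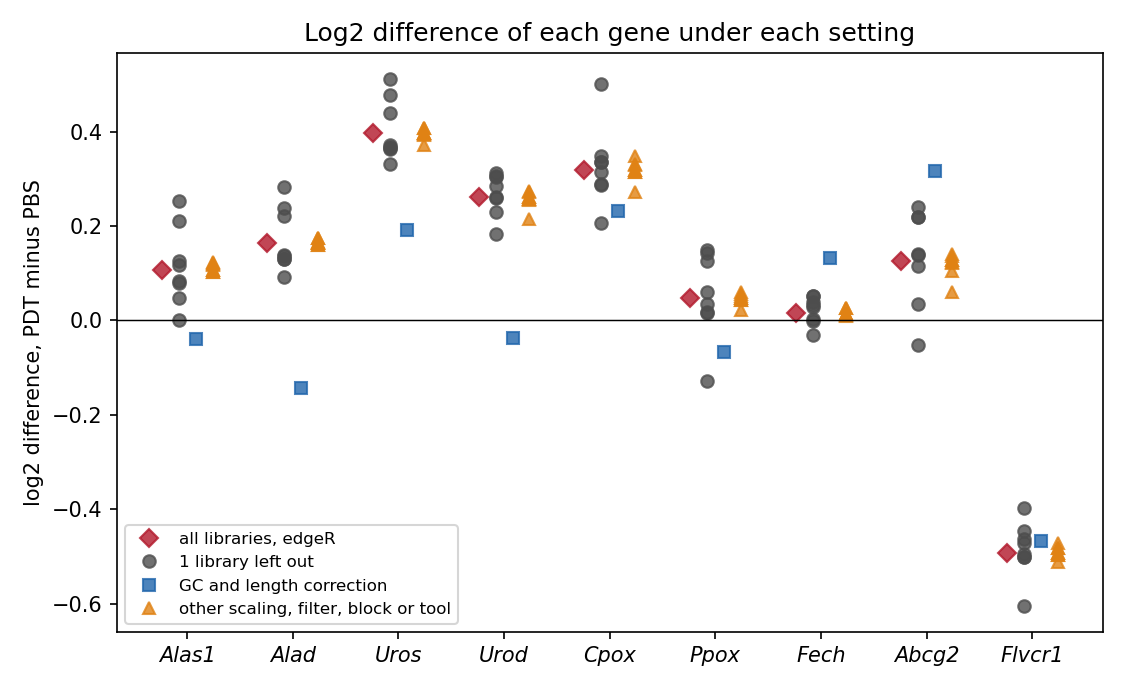
Log2 difference of PDT minus PBS for each of the 9 genes with all libraries (diamonds), with 1 library left out (circles), with the GC and length correction (squares) and with other scalings, filters, the replicate block or other tools (triangles). Flvcr1, Uros and Cpox keep their sign under all 17 alternatives, and 6 genes cross 0 under at least 1; the GC and length correction moves the median of all tested genes by −0.08.

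How large a change could have been missed is set by the spread between libraries more than by depth, since each of the 9 genes had at least 262 reads in every library. All 9 intervals lay inside a 2-fold change either way, and 5 of 9 lay inside a 1.5-fold change. With 4 libraries a group, differences within a gene's own interval were not resolved. That interval was narrowest for Fech, at 0.849-fold to 1.20-fold. Only the interval of Flvcr1, −0.88 to −0.11 on the log2 scale, left out 0. These intervals are not adjusted for the number of genes tested. All values are transcript levels, and enzyme activity, heme export and porphyrin content were not measured.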

How the data were processed

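Libraries of rRNA-depleted total RNA were prepared with a strand-keeping kit, per the labels' protocols. What the authors deposited is a gene table of unnormalised counts with a column for each of the 8 samples, per the file headers. The submitters' processing notes list cutadapt 4.6, STAR 2.7.11b and the build GRCm39. How reads were counted, with which strand option and against which annotation, is not given in the sources used here. Between 77.9% and 83.8% of counts from 1 to 20 were even, as when both reads of a pair are counted.

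Counts were tested with edgeR 4.0.16 in R 4.3.3 (filterByExpr, TMM scaling, quasi-likelihood test, no covariate), with Benjamini-Hochberg adjustment over 16588 genes. Standard errors are the log2 fold change over the root of F, and CPM uses the TMM-scaled library. Alternatives used DESeq2 1.42.0, limma 3.58.1 (voom with quality weights), RLE and upper quartile scaling, other filters, halved counts, a replicate block and each library left out. A correction by splines with 4 degrees of freedom on GC content and transcript length was added after the data were seen. Lengths came from GENCODE M21 on the preceding assembly, by identifier, with 98.1% of tested genes matched, so no coordinates are given.

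The 9 genes, the 5 pathway lists and the 7 marker lists were chosen with earlier results of these data known. Named genes are the 9, the 3 tested genes with the smallest p of each pathway list, and the 3 with a mean of at least 5 CPM nearest in profile to Alas1 and to Abcg2. A gene that this rule names is not reported here. Abcb6 and Blvra were added after their values were seen.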

Additional observations from a re-analysis of the deposited data

Results flagged for a closer look

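In 6 of the 48 groups of 4 libraries checked (24 genes in PDT and in PBS), 1 library lay far from the rest, its gap to the nearest exceeding Dixon's 95% critical share of the group's range. Chance flags about 1 in 20 groups. Alad in PDT 2 was at 22.8 CPM, while the rest of PDT lay at 31.4 to 32.2 CPM. Cpox in PDT 4 was at 17.6 CPM, against 15.7 to 16.0 CPM. Uros in PBS 2 was at 10.3 CPM, while the rest of PBS lay at 7.62 to 7.94 CPM, and Ppox in PBS 4 at 19.7 CPM, against 15.7 to 16.3 CPM. Among the genes around the chain, Slc48a1 in PDT 2 was at 68.1 CPM, against 116 to 126 CPM, and Abcb1a in PDT 1 at 34.6 CPM, against 20.9 to 22.1 CPM.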

How the results depend on the processing

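The count of 0 among the 9 genes was the same in all 17 alternatives, with 1 or 2 unadjusted p-values under 0.05 in each. Over all genes the count of 39 became 69 with upper quartile scaling, 534 with no filter, 88 with at least 1 CPM in 4 libraries, 67 with halved counts, 869 with DESeq2, 167 with limma-voom, 14 with the GC and length correction (3 higher and 11 lower, against 27 higher and 12 lower), and 0 to 122 with 1 library left out (0 without PDT 1 or PBS 3, 3 to 10 without PDT 3, PDT 4, PBS 1 or PBS 2, 112 without PDT 2 and 122 without PBS 4). Among the other pathway genes 0 became 4 with no filter (Alas2, Blvrb, Hmox1 and Hmox2), 4 with DESeq2 (Blvrb, Hebp1, Hmox2 and Slc15a2) and 0 to 2 with 1 library left out (Blvrb and Hmox1 without PDT 2). The replicate number as a block gave 182 genes (148 higher and 34 lower) and 0 of the 9. Same-numbered libraries correlated at 0.0385 to 0.0690 in their deviations from their group means. Low correlations over all genes cannot decide whether the numbers mark pairs or batches, and the labels do not state it. Some genes changed sign under the GC and length correction. Alas1 went from 0.11 to −0.040, Alad from 0.16 to −0.14 and Urod from 0.26 to −0.037. Ppox went from 0.047 to −0.066 and Clpp from 0.30 to −0.045. The correction moved the median of all genes by −0.08. Each of these genes moved further down than that median, and only Alad ended lower than −0.08. With 1 library left out, Ppox ran from −0.13 to 0.15 (below 0 without PDT 4), Fech from −0.031 to 0.053 (below 0 without PDT 2 or PBS 4) and Abcg2 from −0.053 to 0.24 (below 0 without PDT 2). The cause was not tested. A count of 0 allows up to 3 reads, at most 0.0872 CPM in these libraries, for counting error only.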
